A study of Mus musculus and Homo sapiens with 16 samples.

Results

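The Kruppel-like factor genes described here are 10 genes, Klf2, Klf3, Klf4, Klf5, Klf6, Klf7, Klf9, Klf10, Klf12 and Klf13, picked by gene symbol from the 39179 genes counted in a study of KLF5 in mouse skin epithelium. All 10 had counts in every RNA library and passed the low-count filter. The study measured RNA in epithelium of C57BL/6 mice labelled Klf5+/- or Klf5-/-, in 2 sets. The first set held 3 libraries of each genotype from E17.5 embryos, whose peeled epidermis was dissociated and sorted for DAPI-, CD45- and Integrin A6+ cells. The second set, titled HFD, held 2 libraries of each genotype from peeled epidermis that was ground without sorting. The labels neither expand HFD nor give an age or a further treatment for that set, and the library kit was a directional one. Chromatin came as 1 peak list for each assay from sorted E17.5 epithelium labelled wild type: KLF5 ChIP-seq, ChIP-seq of H3K27ac (histone acetylation found at promoters and enhancers in use) and ATAC-seq (open chromatin). The title of the ATAC sample says Het. The part of Klf5 that was deleted, the promoter of any Cre and whether libraries came from separate animals are not stated in the labels. The p-values therefore measure spread between libraries that may be technical.

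Kruppel-like factors are transcription factors that bind GC-rich and CACCC sequences through a shared zinc-finger domain at the C-terminal end. KLF2, KLF4, KLF5, KLF6 and KLF7 are mostly known as activators. KLF3 and KLF12 repress through the CtBP corepressors, and KLF9, KLF10 and KLF13 can recruit the Sin3 corepressor. In the epidermis KLF4 is known for its role in the differentiating upper layers and in barrier formation, and KLF5 for its place in proliferating basal cells.

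The promoters of 4 members are printed, picked by the peaks near them that are described further on. Klf3, Klf4 and Klf13 each have a KLF5 peak over their gene start, and Klf12 has no peak of any assay nearby. Each sequence is the 250 bases before the RefSeq gene start (build GRCm38.p6, the same coordinates as mm10), written 5′ to 3′ on the gene's own strand. Capitals mark matches on either strand to GGGCGG, the core of the GC box, or to CACCC, the core of the CACCC box, and adjoining matches run together.
Klf3, chr5:64803271-64803520, plus strand: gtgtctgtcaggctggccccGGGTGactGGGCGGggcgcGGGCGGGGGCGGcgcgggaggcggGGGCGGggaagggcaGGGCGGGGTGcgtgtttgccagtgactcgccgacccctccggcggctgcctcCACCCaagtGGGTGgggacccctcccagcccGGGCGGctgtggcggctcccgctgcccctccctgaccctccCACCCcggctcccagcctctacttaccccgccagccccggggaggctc
Klf4, chr4:55532476-55532725, minus strand: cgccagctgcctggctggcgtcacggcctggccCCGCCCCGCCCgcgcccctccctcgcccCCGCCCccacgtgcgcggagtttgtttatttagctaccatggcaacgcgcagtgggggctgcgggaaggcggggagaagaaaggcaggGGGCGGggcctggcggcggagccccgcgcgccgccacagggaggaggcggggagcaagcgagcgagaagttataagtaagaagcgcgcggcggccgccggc
Klf13, chr7:63938916-63939165, minus strand: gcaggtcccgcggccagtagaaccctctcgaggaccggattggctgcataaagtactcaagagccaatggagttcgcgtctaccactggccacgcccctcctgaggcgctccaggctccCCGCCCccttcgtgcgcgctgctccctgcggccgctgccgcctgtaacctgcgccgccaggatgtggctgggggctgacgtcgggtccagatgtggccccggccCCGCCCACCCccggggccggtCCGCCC
Klf12, chr14:100149797-100150046, minus strand: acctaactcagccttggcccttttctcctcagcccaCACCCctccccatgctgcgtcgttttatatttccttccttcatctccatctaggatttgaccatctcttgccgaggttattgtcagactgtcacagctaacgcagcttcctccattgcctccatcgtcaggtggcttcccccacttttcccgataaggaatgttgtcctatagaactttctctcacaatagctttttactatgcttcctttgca

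The Klf3 promoter held 6 matches to GGGCGG and 5 to CACCC, and 78.4% of its bases were G or C. Klf4 held 4 and 0, with 74% G or C. Klf13 held 3 and 1, with 71.6%. Klf12 held 0 and 1, with 48% G or C. Over all 32851 promoters of the same length in the RefSeq table, 32.7% held GGGCGG and 52.0% held CACCC at least once, and 4.09% held GGGCGG 4 times or more. The wider pattern CCNCNCCC, whose matches overlap those of the first 2 motifs, was found 10 times in Klf3, 9 in Klf4, 5 in Klf13 and 2 in Klf12, and at least once in 45.9% of all promoters. The summit of the KLF5 peak lay at base 112 of the printed Klf3 sequence, at base 201 of Klf4 and at base 70 of Klf13, counted from the 5′ end. Of the other members, Klf2, Klf6 and Klf7, which have no KLF5 peak nearby, held GGGCGG 2, 1 and 1 times and CACCC 1, 0 and 3 times. They held CCNCNCCC 4, 2 and 8 times, and 71.2%, 64.8% and 59.2% of their bases were G or C. The Klf9 promoter, which a KLF5 peak overlaps, held GGGCGG 0 times, CACCC 1 time and CCNCNCCC 0 times, with 59.6% G or C. Neither the motif counts nor the G or C share thus separated the members with a KLF5 peak from those without. The table matched 8 of the 10 members, and the promoters of Klf5 and Klf10 were not used here. These matches describe letters and are not binding sites.

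Levels were compared between members as CPM (counts scaled to library size, by TMM within a set) divided by the exon length in kb. Klf4 and Klf5 led in the E17.5 Klf5+/- libraries, at 140.8 ± 20.9 and 105.2 ± 10.5 CPM per kb (mean ± SD, n = 3). Klf3 followed at 33.8 ± 3.09, Klf6 at 26.0 ± 2.87, Klf13 at 13.4 ± 1.92 and Klf10 at 9.28 ± 0.277 CPM per kb. The libraries of these 6 genes did not overlap between neighbours in this order. Klf12 stood at 2.03 ± 0.230, Klf9 at 1.97 ± 0.139, Klf2 at 1.48 ± 0.417 and Klf7 at 1.14 ± 0.180 CPM per kb. Each overlapped its neighbours in this order, so the order of neighbours is not resolved. The lowest Klf12 and Klf9 libraries (1.82 and 1.81 CPM per kb) lay above the highest Klf7 library (1.32 CPM per kb). Klf4 and Klf5 together held 73.4% of the summed per-kb level of the 10 members.

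The order differed in HFD Klf5+/- epidermis. Klf4 again led at 174.6 ± 11.6 CPM per kb (n = 2), but Klf6 was next at 53.2 ± 9.27, ahead of Klf5 at 30.8 ± 8.22. Klf9 (18.3 ± 1.92) and Klf2 (17.48 ± 3.70) overlapped each other and stood above Klf3 at 14.3 ± 0.0748. Klf10 (13.1 ± 1.21) and Klf13 (12.3 ± 0.675) overlapped, and Klf7 at 2.11 ± 0.552 and Klf12 at 0.445 ± 0.0576 came last. Klf4 was 1.34 times Klf5 per kb at E17.5 and 5.68 times in the HFD set, and in the libraries labelled Klf5-/- these ratios were 1.20 and 5.54. Since each set was scaled alone, the sets' levels are not on 1 scale and were not tested against each other. Side by side, the HFD Klf5+/- mean CPM was 11.8 times the E17.5 one for Klf2, 9.29 times for Klf9 and 2.04 times for Klf6, and 0.422 times for Klf3, 0.292 times for Klf5 and 0.219 times for Klf12. The sets differ in sorting, preparation, library kit and the HFD title, and an age is stated only for the E17.5 set. What these, any age difference and whatever HFD stands for contribute to the ratios cannot be told apart.

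**Figure D1:**
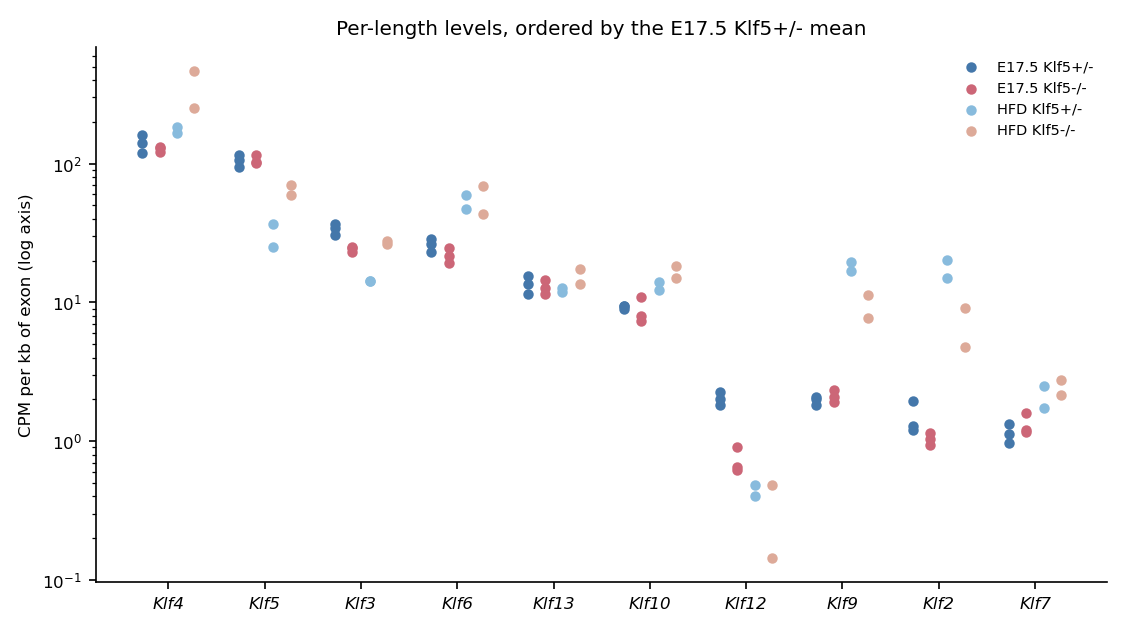
Level per exon length of each member in the 10 RNA libraries, as CPM per kb on a log axis, with genes ordered by their mean in the E17.5 Klf5+/- libraries. Each point is a library and colours are the 4 groups. Klf4 is highest in every group, and Klf2 and Klf9 are the members whose HFD points sit farthest above their E17.5 points.

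The RNA libraries held 31819010 to 46445546 counts on genes. At those depths 3 counts equal 0.0646 to 0.0943 CPM, below the level of every member in every library. The keratins of basal keratinocytes, Krt5 and Krt14, were abundant in all 10 libraries, at 3963 to 17124 and 3945 to 7579 CPM. Endothelial markers, 10 genes in all, summed to 2.78 to 4.54 CPM in the sorted E17.5 Klf5+/- libraries, where Emcn and Robo4 had 0 counts, and to 6.01 to 6.87 CPM in the E17.5 Klf5-/- libraries. They summed to 443 to 483 CPM in the HFD Klf5+/- libraries and to 17.0 to 84.8 CPM in those labelled Klf5-/-. Fibroblast markers, 12 genes, summed to 502 to 628 CPM in E17.5 Klf5+/- libraries, with Twist2 at 0 counts, and to 733 to 766 CPM in E17.5 Klf5-/- libraries, where 11 of 11 tested had log2 fold changes above 0, 8 at an unadjusted p under 0.05 and 0 called by edgeR. They summed to 17442 to 21092 CPM in HFD Klf5+/- and to 840.0 to 4874 CPM in HFD Klf5-/- libraries. In both sets the sums of these lists did not overlap between genotypes, in opposite order, and every E17.5 sum lay below every HFD sum. At E17.5 the largest share came from Dcn among fibroblast markers (mean 456 CPM in Klf5+/- and 556 CPM in Klf5-/-) and Egfl7 among endothelial ones (2.64 and 3.22 CPM). Both genes overlapped between genotypes. Of the endothelial markers 5 were tested at E17.5, all above 0, with 2 not overlapping and 0 called. Of the fibroblast markers, 7 did not overlap. In bulk RNA, fewer cells of a type and less RNA per cell cannot be told apart. Suprabasal keratinocyte markers, 16 genes, also had the genotypes in opposite order in the sets. They summed to 62581 to 78949 CPM in E17.5 Klf5+/- and 34008 to 53276 CPM in E17.5 Klf5-/- libraries, and to 32207 to 35290 CPM in HFD Klf5+/- and 67503 to 75239 CPM in HFD Klf5-/- libraries.

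**Figure D2:**
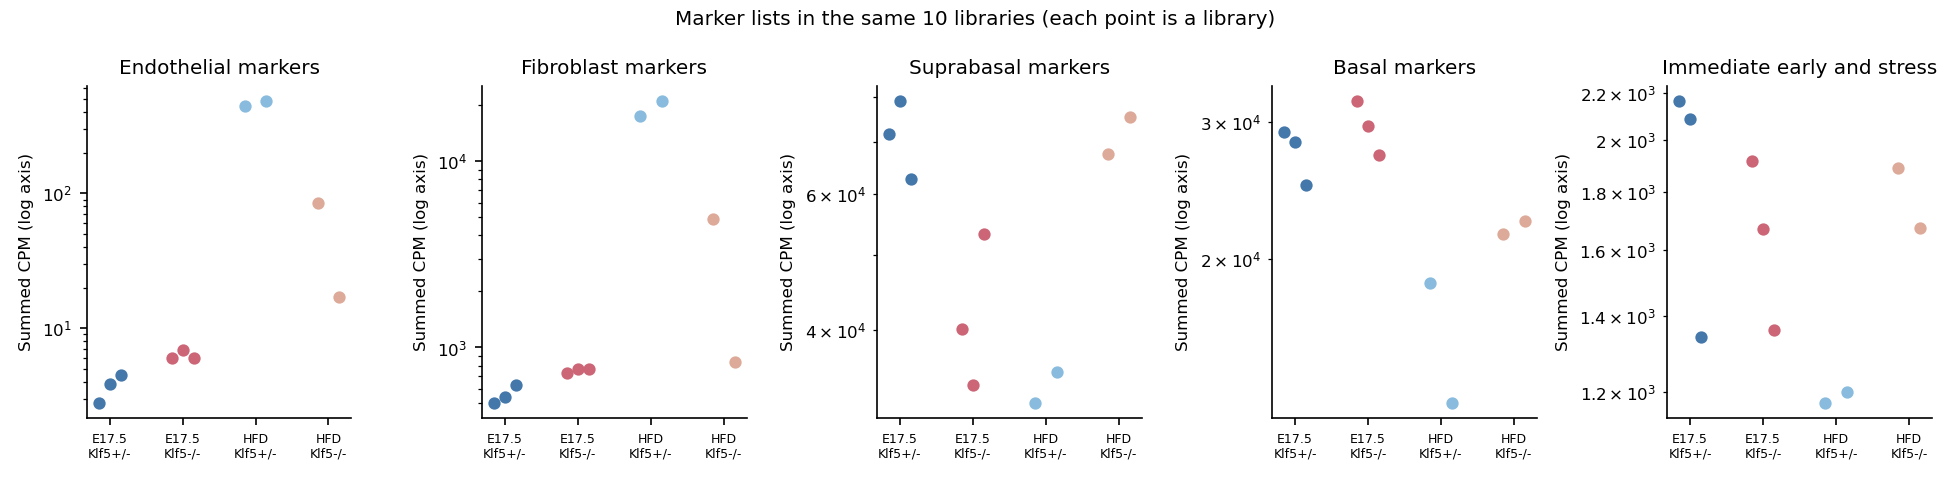
Summed CPM (log axes) of endothelial, fibroblast, suprabasal and basal markers and of immediate early and stress genes in each of the 10 RNA libraries, where each point is a library. The HFD Klf5+/- libraries lie far above all others for endothelial and fibroblast markers, and the suprabasal sums of the genotypes are ordered oppositely at E17.5 and in the HFD set.

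The first question was which members differ in level between the genotypes in sorted E17.5 epithelium. None of the 10 passed an edgeR adjusted p of 0.05, against 0.0861% of all 15092 genes tested (0.0331% higher and 0.053% lower). Klf3, Klf6 and Klf12 had an unadjusted p under 0.05, as did 10% of all genes. The libraries labelled Klf5-/- all lay below the Klf5+/- libraries for Klf2, Klf3 and Klf12, and above them for no member, where 8.18% of all genes had them all below and 6.63% all above. In all, 7 of the 10 log2 fold changes (Klf5-/- over Klf5+/-) were below 0, with a median of −0.11 beside 0.01 for all genes. In HFD epidermis 1 member, Klf3, passed, and it was higher, where 5.5% of 15848 genes passed, 1.48% higher and 4.02% lower. There the Klf5-/- libraries lay above for 5 members (Klf3, Klf4, Klf5, Klf10, Klf13) and below for 2 (Klf2, Klf9), and did not overlap for 60.1% of all genes, 27.4% above and 32.7% below. The median of the members was 0.28 beside −0.01 for all genes, and 5 of 10 had an unadjusted p under 0.05, beside 27.1% of genes. These 5 were Klf2, Klf3, Klf4, Klf5 and Klf9. With 1 library left out, log2 fold changes ran from −1.85 to −0.90 for Klf2 and from 0.91 to 0.98 for Klf3. They ran from 0.56 to 1.43 for Klf4, 0.81 to 1.37 for Klf5 and −1.21 to −0.65 for Klf9. The count of 1 member moved in all 4 of these fits, as did the count of all genes called.

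**Figure D3:**
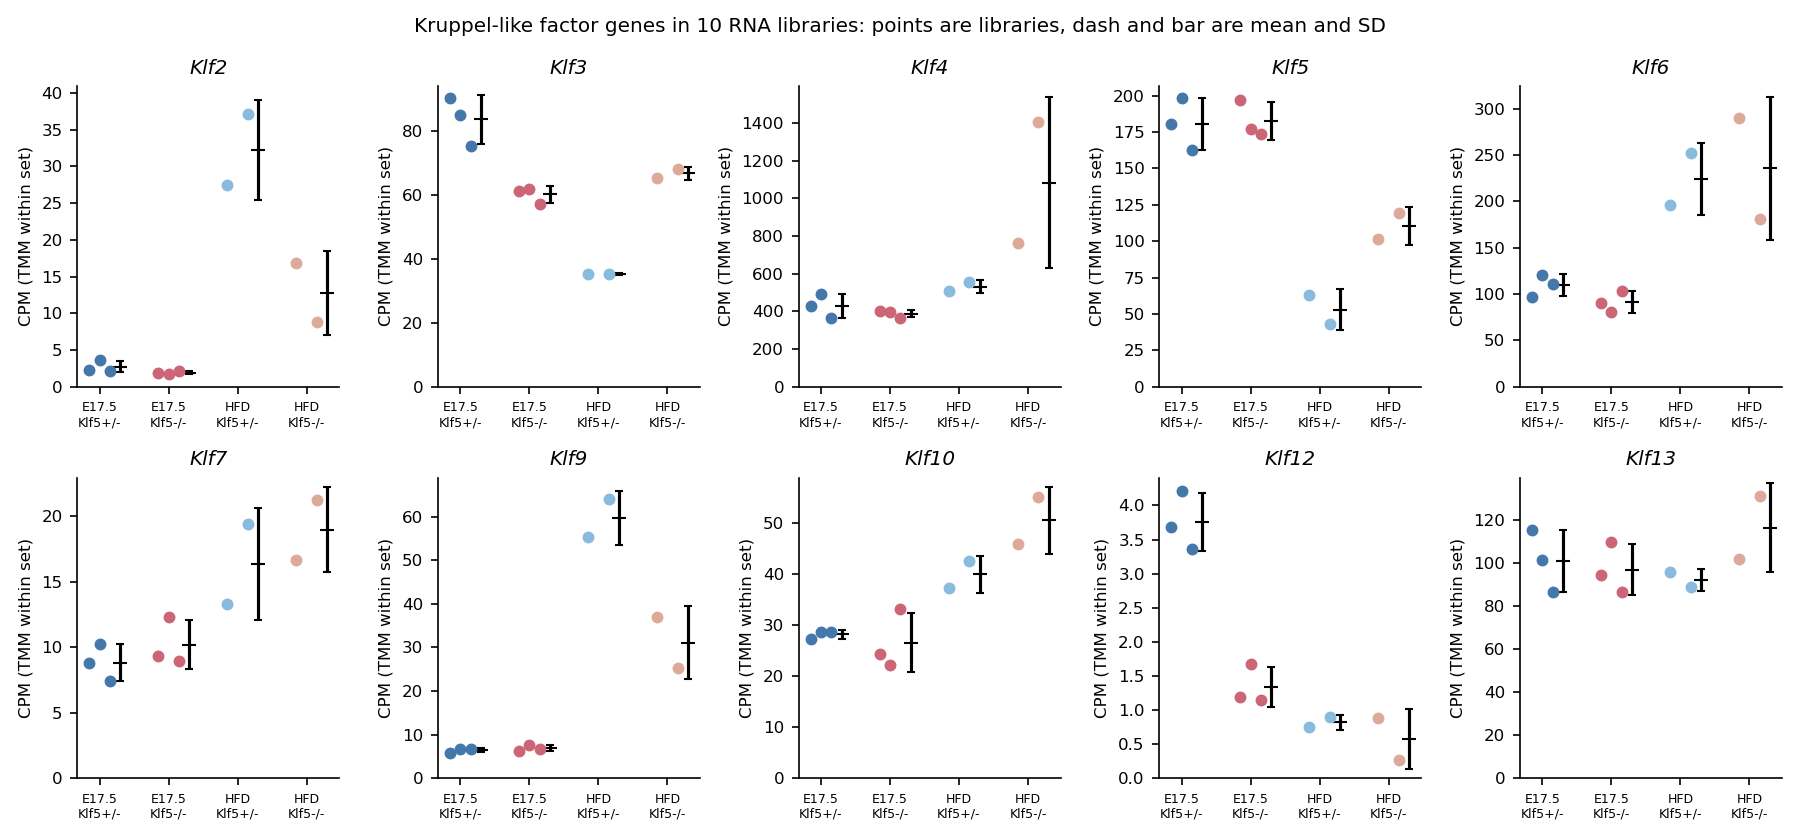
CPM of the 10 members, 1 panel each, with a point for every library and a dash and bar for mean and SD, by group (E17.5, n = 3 each; HFD, n = 2 each). The genotypes of the HFD set do not overlap for Klf2, Klf3, Klf4, Klf5, Klf9, Klf10 and Klf13, and those of E17.5 do not overlap for Klf2, Klf3 and Klf12.

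Among the activators, Klf5 itself (ENSMUSG00000005148, mm10 chromosome 14, 99298691 to 99313405) had no lower counts under the Klf5-/- label. At E17.5 it stood at 181, 199 and 163 CPM in Klf5+/- libraries and at 197, 177 and 174 CPM in those labelled Klf5-/-. These ranges overlap, and the log2 fold change was 0.02 (SE 0.10, 95% interval −0.20 to 0.23, edgeR adjusted p = 0.982). In HFD epidermis it stood at 62.8 and 42.8 CPM against 101 and 119.7 CPM, with both Klf5-/- libraries above both others. That log2 fold change was 1.06 (SE 0.23, 95% interval 0.50 to 1.63), a 2.09-fold higher mean, with an edgeR adjusted p of 0.0533. It passed in 7 of 12 alternatives, the replicate block included, and its adjusted p ran from 0.00120 to 0.263. Basal keratinocyte markers, 12 genes, summed to 13030 to 18605 CPM in HFD Klf5+/- and to 21531 to 22344 CPM in HFD Klf5-/- libraries, with 10 of 12 above 0 and 1 called, which was lower. Their part in the Klf5 values was not tested. With the deleted part unknown, whole-gene counts give no check of the genotype labels.

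Klf4 (ENSMUSG00000003032, chromosome 4, 55527143 to 55532466), the barrier factor of the upper epidermis, was at 430.0, 492 and 364 CPM in E17.5 Klf5+/- libraries and at 401, 397 and 367 CPM in those labelled Klf5-/-. The groups overlap (log2 fold change −0.14, SE 0.12, 95% interval −0.40 to 0.11, edgeR adjusted p = 0.805). HFD values were 507 and 556 CPM against 763 and 1405 CPM, which do not overlap. The second Klf5-/- library lay far above the first, and the log2 fold change of 1.03 (SE 0.32, edgeR adjusted p = 0.104) ranged from 0.56 without that library to 1.43 without the first (edgeR adjusted p = 0.0784 and 2.88e-05). Over the 12 alternatives tried its adjusted p ran from 2.88e-05 to 0.41. Suprabasal markers stood with Klf4 in the HFD set, where 16 of 16 had a log2 fold change above 0 and 2 were called. At E17.5, 15 of 16 were below 0 with none called and 14 at an unadjusted p under 0.05, while Klf4 overlapped between genotypes. The part of the suprabasal RNA in the Klf4 values was not tested.

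Klf2 (ENSMUSG00000055148, chromosome 8, 72319033 to 72321656), a factor best known in endothelial cells, was among the lowest members in sorted epithelium. Its E17.5 levels were 2.35, 3.61 and 2.21 CPM in Klf5+/- and 1.90, 1.72 and 2.11 CPM in Klf5-/- libraries, a log2 fold change of −0.51 with an SE of 0.28 (edgeR adjusted p = 0.622). It stood at 27.4 and 37.1 CPM in HFD Klf5+/- and at 16.8 and 8.77 CPM in HFD Klf5-/- libraries. There the groups do not overlap, and the mean of the Klf5-/- group was 0.396 times the other (log2 fold change −1.34, SE 0.35, 95% interval −2.20 to −0.47, edgeR adjusted p = 0.0778). Klf2 passed in 7 of 12 alternatives, with adjusted p from 8.36e-06 to 0.314. All 10 endothelial markers had log2 fold changes below 0 in the HFD set, with a median of −3.21, and 2 were called lower. Pecam1, an endothelial adhesion molecule, stood at 129.7 ± 14.8 and 14.6 ± 14.7 CPM. Of the 4 HFD libraries, the one lowest in Klf2 was also the one lowest in the endothelial sum. At E17.5 the order was opposite. The endothelial sums lay higher in Klf5-/- libraries (6.01 to 6.87 CPM) than in Klf5+/- ones (2.78 to 4.54 CPM), while Klf2 lay lower. The part of these cells in the Klf2 values was not tested.

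Klf6 (ENSMUSG00000000078, chromosome 13, 5861489 to 5870393), an early responder to injury, stood at 96.9, 121 and 111 CPM in E17.5 Klf5+/- and at 90.6, 80.8 and 104 CPM in Klf5-/- libraries. These overlap (log2 fold change −0.26, SE 0.11, edgeR adjusted p = 0.487). HFD values of 197 and 252 CPM against 290 and 181 CPM overlap as well. Their log2 fold change of 0.07 (SE 0.27) became −0.15 when libraries were scaled by their totals alone. Klf7 (ENSMUSG00000025959, chromosome 1, 64029447 to 64122282), a factor best known in neurons, had 7.46 to 12.3 CPM over the 6 E17.5 libraries and 13.3 to 21.3 CPM over the 4 HFD libraries. It overlapped between genotypes in both sets, at 0.21 (SE 0.18) on the log2 scale at E17.5 and 0.22 (SE 0.27) in the HFD set, the latter −0.0038 with library totals.

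Of the CtBP-binding repressors, Klf3 (ENSMUSG00000029178, chromosome 5, 64803523 to 64830129) had values of opposite sign in the sets. At E17.5 it measured 90.3, 84.9 and 75.2 CPM in Klf5+/- and 61.2, 61.8 and 57.2 CPM in Klf5-/- libraries. Every Klf5-/- library lay below every Klf5+/- one, at a log2 fold change of −0.47 (SE 0.09, 95% interval −0.68 to −0.27, edgeR adjusted p = 0.0868). In HFD epidermis Klf3 rose from 35.4 and 35.1 CPM to 65.2 and 68.0 CPM. That is 1.89-fold, with a log2 fold change of 0.92 (SE 0.16, 95% interval 0.53 to 1.31, edgeR adjusted p = 0.0391). The 2 libraries of either HFD genotype lay close together. The call nonetheless ended without either Klf5+/- library (edgeR adjusted p = 0.208 without the first and 0.215 without the second, where the lone library is taken to vary like the others), and at 0.0539 with library totals. Over the 12 alternatives its log2 fold change kept between 0.70 and 0.98 and its adjusted p between 3.06e-05 and 0.215. Gm20033 overlaps the Klf3 start on the opposite strand and had 6 to 21 counts in E17.5 libraries and 32 to 49 in HFD ones, beside at least 1291 for Klf3. The suprabasal markers had the same signs as Klf3, with a median log2 fold change of −0.57 at E17.5 and 1.00 in the HFD set, and their part in the Klf3 values was not tested.

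Klf12 (ENSMUSG00000072294, chromosome 14, 99874486 to 100149764), first described as a repressor of the AP-2 alpha gene, had the largest log2 fold change of the members at E17.5. It had 171, 140 and 137 counts in Klf5+/- and 42, 68 and 43 in Klf5-/- libraries, or 3.69, 4.21 and 3.36 against 1.19, 1.67 and 1.15 CPM. The groups lay well apart, with a log2 fold change of −1.48 (SE 0.26, 95% interval −2.05 to −0.91), a mean 0.358 times that of Klf5+/-, and an edgeR adjusted p of 0.0783. Without the third Klf5-/- library Klf12 and Klf3 passed the threshold (edgeR adjusted p = 0.0250 and 0.0426). DESeq2 called both, at 6.69e-05 and 0.00178, and limma-voom neither. Over the 14 alternatives the adjusted p ran from 6.69e-05 to 0.426 for Klf12 and from 0.00178 to 0.484 for Klf3. HFD counts of Klf12 were only 30 and 33 against 26 and 11, which overlap on the CPM scale (log2 fold change −0.53, SE 0.75, 95% interval −2.34 to 1.29), an interval that includes both 0 and the E17.5 value. Klf12 and Klf5 lie on the same chromosome, with 561 kb between their nearest ends.

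Of the Sin3-recruiting members, Klf9 (ENSMUSG00000033863, chromosome 19, 23141226 to 23166911), a gene induced by glucocorticoid and thyroid hormones, stood low at E17.5. It had 5.91, 6.76 and 6.60 CPM in Klf5+/- and 6.28, 7.64 and 6.81 CPM in Klf5-/- libraries, which overlap (log2 fold change 0.11, SE 0.16, 95% interval −0.26 to 0.47). HFD Klf5+/- libraries held 55.3 and 64.1 CPM and those labelled Klf5-/- 37.0 and 25.2 CPM. The latter lay below, at a log2 fold change of −0.94 (SE 0.24, 95% interval −1.51 to −0.37, edgeR adjusted p = 0.0688). Over the 12 alternatives it passed in 7, with adjusted p from 0.000122 to 0.298. Adipocyte markers, 8 genes, summed to 16.8 to 43.4 CPM at E17.5, with Adipoq, Lep and Plin1 at 0 counts in the Klf5+/- group. They summed to 975 to 1523 CPM in HFD Klf5+/- and to 235 to 380 CPM in HFD Klf5-/- libraries, and fibroblast markers had 12 of 12 log2 fold changes below 0, with 1 called. Their part in the Klf9 values was not tested.

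Klf10 (ENSMUSG00000037465, chromosome 15, 38294413 to 38300707), an early gene of TGF-beta signalling, had 27.3, 28.7 and 28.8 CPM in E17.5 Klf5+/- and 24.4, 22.2 and 33.1 CPM in Klf5-/- libraries, which overlap (log2 fold change −0.09, SE 0.14). HFD values were 37.4 and 42.6 CPM against 45.9 and 55.2 CPM. They do not overlap, but the log2 fold change of 0.34 (SE 0.19, edgeR adjusted p = 0.300) did not pass. Klf13 (ENSMUSG00000052040, chromosome 7, 63886347 to 63938915) stood at 86.7 to 116 CPM over all 6 E17.5 libraries (log2 fold change −0.06, SE 0.12, and 0.0088 with library totals). Its HFD values were 96.0 and 88.8 CPM against 102 and 131 CPM, at a log2 fold change of 0.34 with an SE of 0.19 (edgeR adjusted p = 0.306). A list of 22 immediate early and stress genes, which includes the heat shock genes Hspa1a and Hspa1b and shares no gene with the members, had 20 log2 fold changes above 0 in the HFD set with 2 called, Junb and Hspa1b, and 7 above 0 at E17.5 with none called. Their summed CPM was 1172 to 1199.8 in HFD Klf5+/- and 1673 to 1888 in HFD Klf5-/- libraries. Their part in the values of Klf4, Klf6 and Klf10 was not tested.

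The genotype effects were then compared between the sets by testing HFD minus E17.5 in 1 edgeR fit of all 10 libraries. Of the 10 members 4 passed, 3 higher in HFD and 1 lower, where 14.7% of 17260 genes did, 7.07% higher and 7.61% lower. The same 4 had an unadjusted p under 0.05, as did 30.2% of genes. Klf3 had the largest difference, 1.40 on the log2 scale (SE 0.16, 95% interval 1.06 to 1.75, edgeR adjusted p = 0.00267), made of a negative value at E17.5 and a positive one in HFD epidermis. Klf4 differed by 1.18 (SE 0.31, 95% interval 0.50 to 1.86, edgeR adjusted p = 0.0281), Klf5 by 1.06 (SE 0.24, 95% interval 0.53 to 1.58, edgeR adjusted p = 0.0159) and Klf9 by −1.04 (SE 0.24, 95% interval −1.57 to −0.51, edgeR adjusted p = 0.0177). For the latter 3 the E17.5 interval included 0. Marker lists differed in the same test: 16 of 16 suprabasal markers were above 0, with a median of 1.54 and 11 called, 12 of 12 fibroblast markers were below 0, with 8 called, and 10 of 10 endothelial markers were below 0, with 6 called. Their part in the differences of Klf3, Klf4, Klf5 and Klf9 was not tested. Klf3 passed in all 17 alternatives, with differences of 1.11 to 1.47, and Klf5 and Klf9 passed in 16 each. Without the second HFD Klf5+/- library their edgeR adjusted p was 0.0517 and 0.0711, and only 1 member, Klf3, passed. Klf4 passed in 8 of 17. Its call ended with library totals (edgeR adjusted p = 0.0745) and without each E17.5 library but the third Klf5+/- one, and without each HFD library but the first Klf5-/- one, with a highest adjusted p of 0.0942. The other 6 members did not pass, with differences from −0.82 for Klf2 (95% interval −1.74 to 0.10) to 0.96 for Klf12 (95% interval −0.51 to 2.42), and Klf7 at 0.02 (95% interval −0.68 to 0.71). The HFD title, any age difference, sorting, preparation and library kit all go together with the set. What the difference owes to each cannot be told apart.

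**Figure D4:**
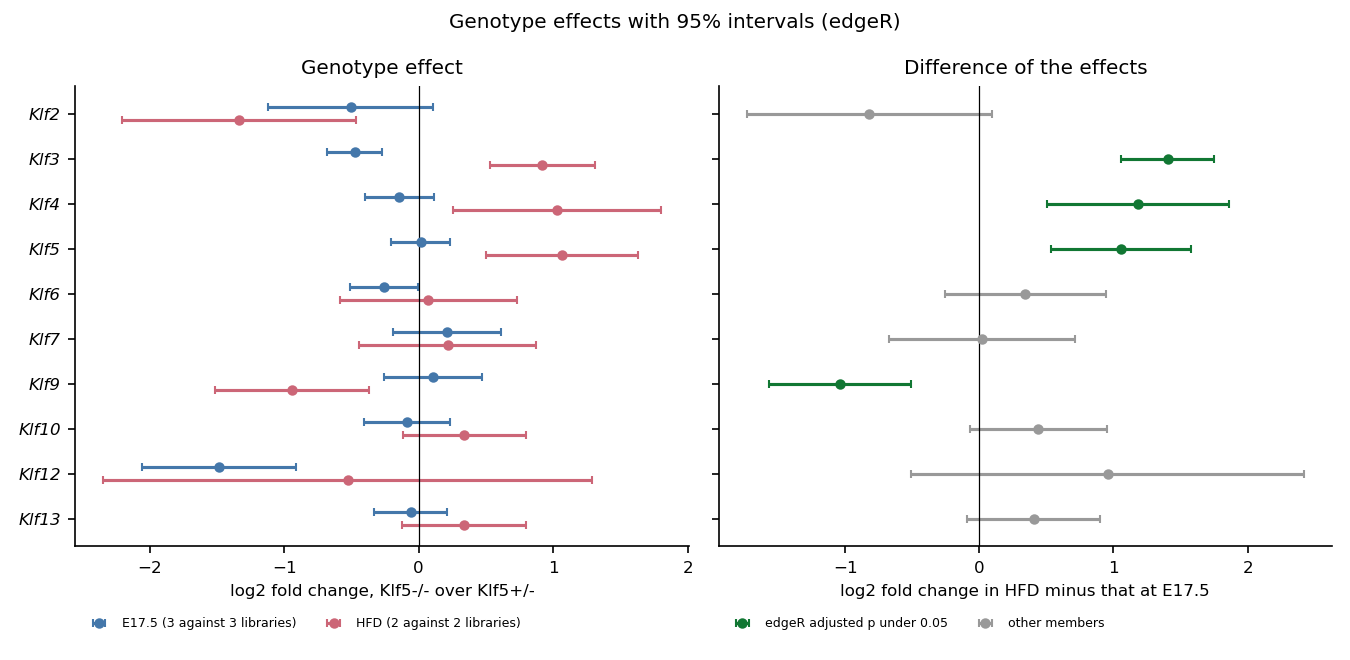
Log2 fold change of Klf5-/- over Klf5+/- for each member at E17.5 and in the HFD set (left), and the difference of both, HFD minus E17.5 (right), as points with 95% intervals from edgeR. Klf3 is the member whose intervals lie on opposite sides of 0, and the differences of Klf3, Klf4, Klf5 and Klf9 are those with an adjusted p under 0.05.

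The E17.5 peaks were taken within 5 kb of each gene start, with no test, as each assay has 1 list. The fold enrichments and −log10 q values are the authors'. A KLF5 peak lay near 6 of the 10 members, Klf3, Klf4, Klf5, Klf9, Klf10 and Klf13, beside 22.9% of the 15092 genes tested at E17.5. H3K27ac peaks lay near 9 members (63.5% of genes) and ATAC peaks near 9 (84.4%), Klf12 being the exception to both. All 3 assays had a peak at the same 6 members, beside 21.6% of genes. The share of genes with a KLF5 peak goes up with the level in the E17.5 Klf5+/- libraries, from 10.5% in the lowest of 4 equal bins of genes through 18.1% and 26.6% to 36.4% in the highest, and 5 of the 10 members lie in that highest bin, 4 of them with a KLF5 peak.

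Klf3 had the strongest KLF5 peak of the members, chr5:64802834-64803666, with a fold enrichment of 5.16 and rank 647 of the 6472 KLF5 peaks. Its summit lay 141 bases upstream of the gene start, in a stretch of the printed promoter without a GGGCGG or CACCC match, with matches on either side. Klf13 came next at 4.81-fold (rank 1110), with its summit 181 bases upstream, and had a second, weaker peak of 2.81-fold 1259 bases inside the gene. The Klf4 peak was 4.17-fold with its summit 59 bases upstream, and the Klf5 peak 3.78-fold with its summit 121 bases upstream, so the Klf5 promoter itself carried a KLF5 peak. These 4 peaks cover the gene start. Klf9 had a 4.02-fold peak 437 bases upstream that ended short of the start, and Klf10 had 1 of 3.26-fold 267 bases upstream and 1 of 3.92-fold 1616 bases inside the gene. The median over all KLF5 peaks was 3.99-fold. The members with no KLF5 peak had their nearest KLF5 summit 78.9 kb (Klf2), 135 kb (Klf12), 319.8 kb (Klf6) and 616 kb (Klf7) from the gene start.

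**Figure D5:**
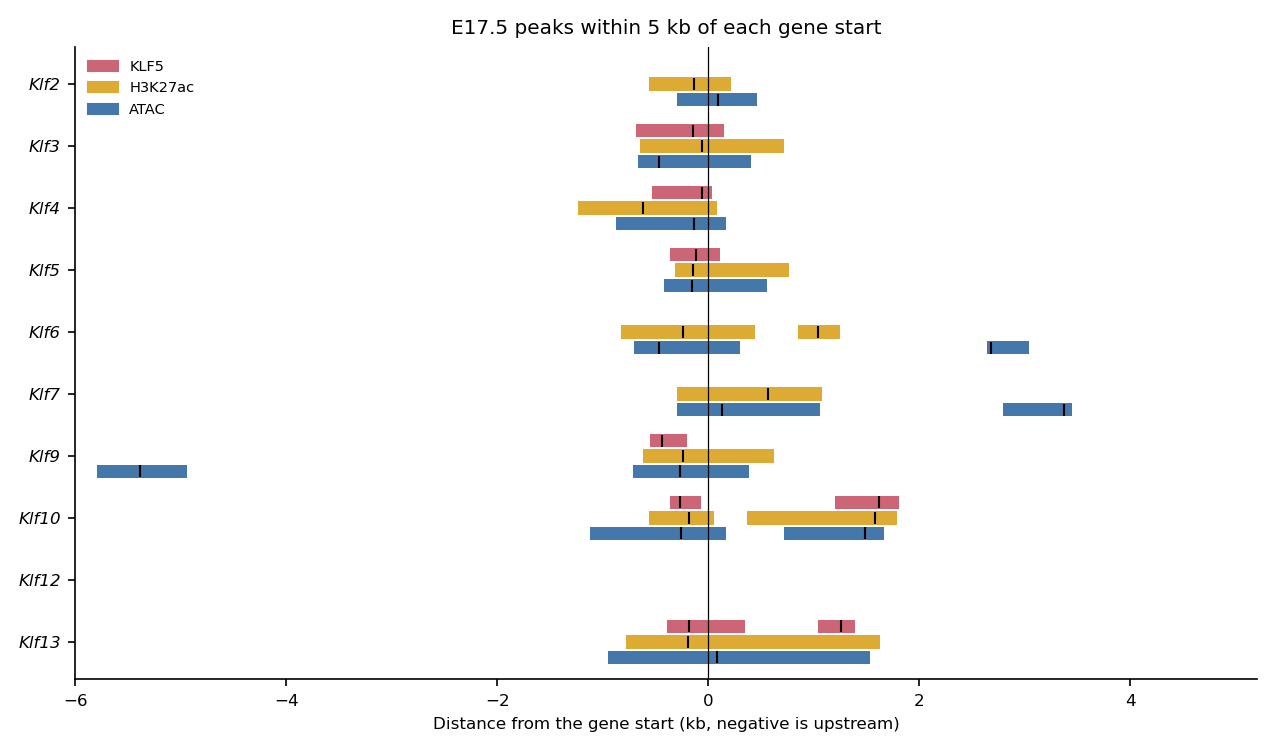
E17.5 peaks of KLF5, H3K27ac and ATAC within 5 kb of each member's gene start, drawn as bars along the distance from the start in kb (negative is upstream), with a tick at each summit. KLF5 bars sit at 6 members, always inside an H3K27ac or ATAC bar or overlapping one, and Klf12 has no bar at all.

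The members with the highest acetylation and the most open starts were not those with the highest KLF5 enrichment. The highest H3K27ac enrichment of the members, 6.29-fold (rank 671 of 18155), was at Klf7, which has no KLF5 peak and is among the lowest members by level. Klf4 followed at 4.85-fold and Klf9 at 4.56-fold, and Klf2, Klf6 and Klf13 lay between 4.11 and 4.17-fold. The highest ATAC enrichment, 9.28-fold (rank 4163 of 41905), was at the Klf5 promoter, ahead of Klf9 at 8.45, Klf3 at 7.38 and Klf2 at 7.34-fold. Klf2 and Klf9 had open, acetylated starts in sorted epithelium while their RNA stood at 1.48 and 1.97 CPM per kb. An ATAC peak 5388 bases upstream of Klf9 is nearer to the start of 2410080I02Rik. At Klf12 the nearest summits were 40.0 kb away for ATAC and 205 kb for H3K27ac, though 4 ATAC peaks and 1 H3K27ac peak lay within the gene body. Klf12 is the member with the largest E17.5 log2 fold change and the only one with no peak of any assay near its annotated start. Each gene was given 1 annotated start, and whether Klf12 RNA begins there was not tested.

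Set beside the genotype effects, the 6 members with a KLF5 peak had HFD log2 fold changes from −0.94 (Klf9) to 1.06 (Klf5), 5 of them above 0, with a median of 0.63. The 4 without one ranged from −1.34 (Klf2) to 0.22 (Klf7), 2 above 0, with a median of −0.23. For all genes tested in that set, 60.1% of those with a peak and 46.5% of those without were above 0, with medians of 0.10 and −0.06. The E17.5 medians were −0.07 for the 6 and −0.38 for the 4, with 2 of 6 and 1 of 4 above 0. For all genes tested at E17.5, 49.4% of those with a peak and 53.6% of those without were above 0. Their medians were −0.002 and 0.017, in the opposite order to the HFD set. None of the 3451 genes with a KLF5 peak was called at E17.5, and 13 of the 11641 without one were, beside 0.0861% of all genes. That total of 13 is not stable, as it ran from 0 to 513 with 1 library left out.

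The wider family was counted in the same way. Of 16 other KLF and SP genes, 11 were tested at E17.5 with 0 called by edgeR and 0 at an unadjusted p under 0.05 (10% of all genes), and 13 in the HFD set with 1 called and 4 at an unadjusted p under 0.05, beside 5.5% and 27.1% of all genes. The called gene was Sp6, a factor of hair follicle and tooth epithelium, which rose from 37.1 ± 1.77 to 65.7 ± 6.53 CPM (n = 2 each), a log2 fold change of 0.83 with an SE of 0.17 (edgeR adjusted p = 0.0496). Sp6 stood at 0.734 ± 0.199 CPM in E17.5 Klf5+/- libraries. Klf15, a metabolic regulator, stood at 10.5 ± 0.778 and 4.63 ± 0.929 CPM in the HFD genotypes (−1.17 on the log2 scale, SE 0.29, edgeR adjusted p = 0.0671) and at 10.6 ± 0.611 and 11.0 ± 1.34 CPM at E17.5. The difference of its effects between the sets passed, at −1.22 (SE 0.28, edgeR adjusted p = 0.0173). Klf14 had 79 counts in HFD Klf5+/- and 6 in HFD Klf5-/- libraries, and Sp7 39 and 3, with edgeR adjusted p values of 0.0567 and 0.130. The largest E17.5 values were those of Klf1 (0.76, SE 0.43, on 74 and 122 counts), Klf8 (−0.38, SE 0.18) and Sp2 (0.20, SE 0.20). Klf1 is an erythroid factor. Erythroid markers, 8 genes, summed to 15.8 to 1124 CPM in E17.5 Klf5+/- and to 267 to 2736 CPM in E17.5 Klf5-/- libraries, with 8 of 8 log2 fold changes above 0, a median of 1.49 and 0 called, and their part in the Klf1 values was not tested.

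Of 21 genes listed as coregulators, all were tested and edgeR called none in either set. The list holds corepressors such as Ctbp1 and Sin3a, acetyltransferases, ubiquitin enzymes that act on KLF proteins, Fhl3 and Egr1. Egr1 is also in the immediate early list. At an unadjusted p under 0.05 there was 1 at E17.5 and 4 in the HFD set, beside 10% and 27.1% of all genes. Fhl3, a LIM-domain partner of KLF3, stood at 6.04 ± 1.61 and 8.79 ± 2.25 CPM at E17.5 (0.54 on the log2 scale, SE 0.24, edgeR adjusted p = 0.491). Kat2b and Egr1 had E17.5 values of −0.26 and −0.23. The 3 largest HFD values were those of Egr1 (0.70), Atxn3 (0.60) and Usp7 (0.58), with edgeR adjusted p values of 0.130, 0.167 and 0.174.

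Across the 10 libraries, with each set centred on its own mean log2 CPM, the genes most like Klf5 among 14106 tested in both sets were Plekhg6 (Pearson r 0.988, Spearman rho 0.988), Klhl21 (r 0.983, rho 0.964) and Eif4h (r 0.982, rho 0.842). Over the 6 E17.5 libraries alone r was 0.82, 0.85 and 0.66. Among the members themselves, Klf4 and Klf5 gave r 0.82, Klf2 and Klf9 0.86, Klf4 and Klf9 −0.90 and Klf5 and Klf9 −0.92. These are descriptions over 10 libraries that share genotype, depth and tissue make-up.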

How the data were processed

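The data are 10 RNA libraries and 1 chromatin sample for each of 3 assays, all from mouse skin. The deposited RNA files hold unnormalized counts of reads for each Ensembl gene; per the submitters' processing notes, STAR 2.6.0b and HTSeq were used on mm10 (GRCm38), and the strand setting of the counting is not stated in them. The RPKM values that the authors deposited in the HFD files were read only for a check against the counts and entered no test. For the peak lists the submitters' processing notes name MACS2, Bowtie 1.0.1 and Bowtie2 2.2.3. The deposited lists give a fold enrichment (a ratio over local background) and −log10 p and −log10 q values for each peak. The deposited integer score was not used. Neither a control library nor a calling threshold is stated in the labels.

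Gene symbols, exon lengths and positions came from the HFD files, and E17.5 counts were joined by Ensembl identifier. Reads that named no gene (13.4 to 16.9% of each library) stayed out of library sizes and tests. The 2 sets were fitted separately in edgeR 4.0.16 (R 4.3.3; robust quasi-likelihood test after filterByExpr and TMM scaling, Benjamini-Hochberg adjustment over all genes tested, threshold 0.05), and the difference of effects in 1 fit of all 10 libraries. The standard error is the log2 fold change divided by the square root of F. The steps were tested on simulated data. Alternatives used other scalings and filters, DESeq2 1.42.0, limma-voom 3.58.1, the replicate number as a block, 1 fit of all libraries and each library left out. No 2 libraries of the same group agreed within sampling noise, and pairs from different groups were not compared. All 10 members are named. Of the other KLF and SP genes and the coregulators, those called and the 3 of largest log2 fold change in each set are named. Genes most like Klf5 were the 3 of highest Pearson r. The members and lists were chosen with earlier results of these data known. The HaCaT and IgG samples were not used here.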

Additional observations from a re-analysis of the deposited data

Results flagged for a closer look

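The genotype effect differed between the HFD set and E17.5 epithelium, by edgeR's test of the difference itself, for 4 members and, of the other KLF and SP genes and the coregulators, for 2 genes. The difference (HFD minus E17.5, log2) was 1.40 for Klf3 (edgeR adjusted p = 0.00267), from −0.47 to 0.92, with no overlap of genotypes in either set. It was 1.18 for Klf4 (edgeR adjusted p = 0.0281) and 1.06 for Klf5 (edgeR adjusted p = 0.0159), whose E17.5 libraries overlapped and whose HFD libraries labelled Klf5-/- lay above. It was −1.04 for Klf9 (edgeR adjusted p = 0.0177), which lay below in the HFD set. Among the other KLF and SP genes, Klf15 differed by −1.22 (edgeR adjusted p = 0.0173). Atxn3, which encodes a deubiquitinase, differed by 0.84 (edgeR adjusted p = 0.0364), from −0.22 to 0.60. Of all genes tested, 14.7% passed this test. What sorting, preparation, kit, any age difference and whatever HFD stands for contribute cannot be told apart.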

How the results depend on the processing

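At E17.5 the edgeR count of 13 called genes was 6 with library totals, 237 without a low-count filter, 2 with a mean of at least 1 CPM, 461 with DESeq2, 0 with limma-voom (1530 at an unadjusted p under 0.05) and 3 in a fit of all 10 libraries. It ran from 0 (without the first Klf5-/- library) to 513 (without the third) when 1 library was left out. The count of 0 called members became 2 without a filter and 2 with DESeq2, and 0 to 2 with 1 library left out. In the HFD set the count of 872 genes was 1340 with library totals, 2396 without a filter, 2906 with DESeq2, 1942 with limma-voom and 3672 in the fit of all libraries. It ran from 19 (without the second Klf5+/- library) and 36 (without the first) through 2681 (without the second Klf5-/- library) to 5389 (without the first). The 1 called member became 2 with library totals (Klf2 and Klf9, both lower), 5 without a filter, 5 with DESeq2, 4 with limma-voom, 5 in the fit of all libraries, and 0 to 6 with 1 library left out. Where 1 library of an arm remained, it is taken to vary like the others. Library totals in place of TMM lowered the share of higher calls from 26.95% to 10.3% in the HFD set and from 48.18% to 18.73% for the difference of effects. They raised it from 38.46% to 66.67% at E17.5. With them the median log2 fold change of all genes was −0.23 in the HFD set and −0.31 for the difference, from −0.01 and −0.02. The difference of effects stayed within 1.5 times of 4 members and 2534 genes under the settings that keep all libraries, and gave 1 to 5 members and 1266 to 4467 genes with 1 library left out.

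The sign changed with library totals for Klf13 at E17.5 (0.0088), for Klf6 (−0.15) and Klf7 (−0.0038) in the HFD set and for the difference of Klf7 (−0.29). With 1 library left out, E17.5 values ran from −0.16 to 0.050 for Klf13, −0.055 to 0.088 for Klf5 and −0.28 to 0.028 for Klf10. HFD values ran from −0.28 to 0.41 for Klf6, −0.027 to 0.51 for Klf7 and −1.59 to 0.15 for Klf12. The differences ran from −0.20 to 0.28 for Klf7, −0.030 to 0.64 for Klf6 and −0.12 to 1.61 for Klf12. None of these was called in any of those fits. The causes were not tested.

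With a fold enrichment of at least 5, a KLF5 peak remained at 1 member (Klf3) and an H3K27ac peak at 1 (Klf7). Windows of 2 or 10 kb, or the summit in place of the peak, gave 6, 9 and 9 members for KLF5, H3K27ac and ATAC, the counts reported. Libraries share replicate numbers, but the deviations of same-numbered libraries correlated at 0.05, −0.12 and 0.25 at E17.5 and 0.21 in the HFD set, and the first Klf5+/- library correlated best with the second Klf5-/- one (0.28) at E17.5. Nothing in the labels ties a number to a shared animal or day, and 2 pairs in the HFD set are too few to tell, so the numbers were not taken to pair the samples. With the replicate block 42 genes and 0 members were called at E17.5, and 1520 genes and 2 members (Klf3 and Klf5) in the HFD set.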

Other observations

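Klf12 and Klf5 lie on the same chromosome, so the genes within 2 Mb of Klf5 were listed, a choice made after their values were seen. The 8 genes tested there were Klf5, Klf12, Pibf1, Bora, Dis3, Mzt1, Dach1 and Rpl36a-ps1. At E17.5, 3 had log2 fold changes below 0, with a median of 0.01, and edgeR called 0. An edgeR unadjusted p under 0.05 was found for 2, Klf12 itself among them, beside 10% of all genes. In the HFD set 4 were below 0, with a median of −0.05, and 0 were called. Klf5 itself was the 1 gene with an edgeR unadjusted p under 0.05, beside 27.1% of all genes.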
